A study of Mus with 2 samples.

Results

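The VEGF family ligands Vegfa, Vegfb, Vegfc and Pgf, the angiopoietins Angpt1 and Angpt2, the VEGF receptors Flt1 and Kdr and the neuropilins Nrp1 and Nrp2 were examined in mouse bone marrow derived macrophages (BMDMs). These 10 genes were found by matching the transcript accession of each array probe to RefSeq symbols, which gave 13 probes for them among the 20060 genes with a matched probe. The cells came from the bone marrow of male C57BL6/J mice, which the study's methods give as 10 weeks old, and were grown for 7 d in 10 ng/mL of M-CSF, the growth factor that turns marrow cells into macrophages. Both cultures were then kept under M2 conditions for 24 h, which means culture with 10 ng/mL of IL-4. One culture had 10 µM of GW4064, a synthetic agonist of the bile acid receptor FXR, and the other had its solvent DMSO. RNA of each culture was labelled with Cy3 and read on 1 Agilent 1-colour array, so that there were no replicates, no error between cultures and no test for any gene. Neither the labels nor the methods state whether both cultures came from the same animal.

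VEGF-A drives the growth of blood vessels by binding to the receptors FLT1 and KDR on endothelial cells, and macrophages in wounds and tumours are known to release it. VEGF-B and PlGF, the product of Pgf, bind FLT1, which monocytes and macrophages also carry. VEGF-C acts mainly on lymphatic vessels through FLT4. The neuropilins hold VEGF in complex with these receptors and also bind class 3 semaphorins, secreted proteins that guide axons and vessels. ANGPT1 activates the receptor TIE2, encoded by Tek, and steadies vessels, whereas ANGPT2 can block it.

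The values are the brightness of each spot after background subtraction. For the comparison, the log2 of this signal was taken relative to the 75th percentile of its array (1209 for the DMSO array, 1265 for the GW4064 array), and differences are given as GW4064 minus DMSO. With DMSO 57.4% and with GW4064 58.5% of all probes passed as well above background, which left 13532 genes measured on at least 1 array. A gene with several probes is given by their mean. Copies of 1 probe give the error of the spots alone. Over 227 probes with 10 copies each, none of them dim, the SD of the log2 difference between copies had a median of 0.076. On the whole slide 577 single spots differed 8-fold or more, and spots with 2 or more such neighbours within 300 µm, called damaged areas below, made up 16.5% of all spots. Of the 9 macrophage markers on a list, 8 had a matched probe and 0 of these were dim on either array. Adgre1, a surface receptor used to define macrophages, had mean signals of 45433 with DMSO and 39729 with GW4064. Arg1, the arginase that marks M2 cells, had signals of 4875 with DMSO and 72297 with GW4064. It had the largest difference of the 7 M2 markers measured, of which 5 were higher and 2 lower, with a median of 0.21. Mrc1 (-0.34) and Pdcd1lg2 (-0.41) were the lower ones, and Chil3 differed by 0.066.

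Each of the 13 probes passed as well above background with DMSO and with GW4064, so that no difference below is a bound. Of the 10 genes, Vegfa and Angpt1 were 2-fold or more higher with GW4064, which makes 2 of 10 beside 2.04% of all genes measured, and 0 of 10 were 2-fold or more lower, beside 2.71%. At 1.5-fold the same 2 genes were higher (4.39% of all genes) and Vegfc was the 1 gene lower (5.56%), and at 4-fold 0 of 10 were higher (0.48%) or lower (0.584%). Counted by probe, 3 of 13 were 2-fold or more higher, beside 2.15% of all probes, and 0 of 13 lower, beside 2.78%. The other 7 genes differed by less than 0.5 on the log2 scale in either direction. By sign alone, 7 of 10 were higher beside 51.6% of all genes, and the median log2 difference was 0.084 against 0.0068 over all genes. Vegfa and Angpt1 are also drawn in the study's heat map of these arrays, so that their higher values are no independent evidence.

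**Figure D1:**
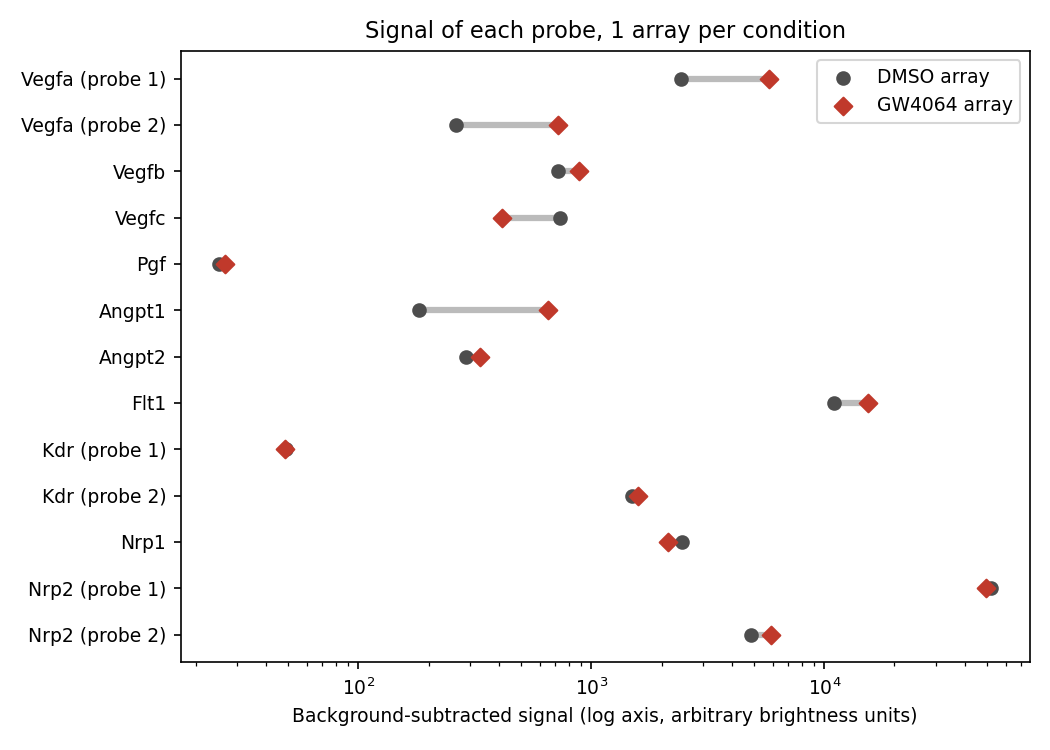
Signal of each of the 13 probes on the DMSO array (grey circles) and on the GW4064 array (red diamonds), on a log axis of brightness, with a bar between the values of 1 probe. The bars of both Vegfa probes and of Angpt1 are the longest and run to the right with GW4064, that of Vegfc runs to the left, and the remaining pairs lie close together.

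Vegfa, the main angiogenic ligand, was measured by 2 probes listed under different transcripts of the gene. Without probe sequences it is not known whether they tell these transcripts apart. The probe matched to NM_001025250 had a signal of 2424 with DMSO and 5768 with GW4064. The probe matched to NM_001025257 had 263 with DMSO and 717 with GW4064. Both were brighter on the GW4064 array, with log2 differences of 1.18 and 1.38, or 2.27-fold and 2.60-fold. Among 30 repeated probes of like brightness, the SD over copies had a median of 0.075 for the first and 0.076 for the second, and both differences were more than 15 times as large as the copies' SD (15.9 and 18.1). The mean of 1.28 was the 179th highest of the 13532 genes, and 1.32% of the genes were as high or higher. No spot that differed 8-fold lay within 300 µm of either probe. The mean of both Vegfa probes stayed above 2-fold in each of the 12 settings that gave it a value, between 1.09 and 1.28. With spike-in centring the brighter probe alone gave 0.994, just short of 2-fold, and the other 1.19. The settings that alter only the handling of dim probes, marked spots or damaged areas could not change the mean. None of the Vegfa spots was dim, marked or in such an area, and the same holds for Vegfc, Angpt1 and Nrp1 below. Vegfc, Angpt1 and Nrp1 have 1 probe each, so that the choice of probe could not change them either.

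Vegfb, a ligand of FLT1, had a signal of 722 with DMSO and 884 with GW4064. The difference of 0.23 was 3.56 times the SD of copies of like brightness (0.064), but shrank to 0.036 with centring on the spike-in RNA, the control RNA added to each sample in known amounts. Pgf, which also encodes a ligand of FLT1, was close to the detection limit, with signals of 25.3 and 26.7, that is 1.61 and 1.76 times the lowest signal well above background on each array. Its difference of 0.0097 was far below the copies' SD of 0.142. The sign of Pgf turned negative under 3 of 12 settings, -0.18 being the lowest value, after centring on the spike-in RNA.

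Vegfc, the ligand of the lymphatic receptor FLT4, was the 1 VEGF family ligand of 4 that was lower with GW4064. Its signal was 731 with DMSO and 413 with GW4064, a log2 difference of -0.89 or 1.85-fold lower, and 13.3 times the copies' SD of 0.067. Only 3.27% of all genes were as low or lower, which made it the 443rd lowest. It was lower in all 12 settings, from -1.08 with spike-in centring, where it passed 2-fold, to -0.83 with another background correction. The differences of Vegfa and Vegfc, read on the same arrays, lay 2.17 log2 units apart, a 4.50-fold change of 1 relative to the other that no centring alters. On a list of 13 stromal cell markers 12 were measured, and 11 of these were also lower, with a median of -0.74. Over all 13532 genes measured 6521 were lower, with a median of 0.0068. The summed signal of the stromal markers was 22115 with DMSO and 12133 with GW4064. Col1a2, a collagen chain of fibroblasts, had 10058 with DMSO and 5296 with GW4064. In RNA from whole cultures, fewer cells of a type and less RNA per cell cannot be told apart, and the part of stromal cells in the Vegfc value was not tested.

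**Figure D2:**
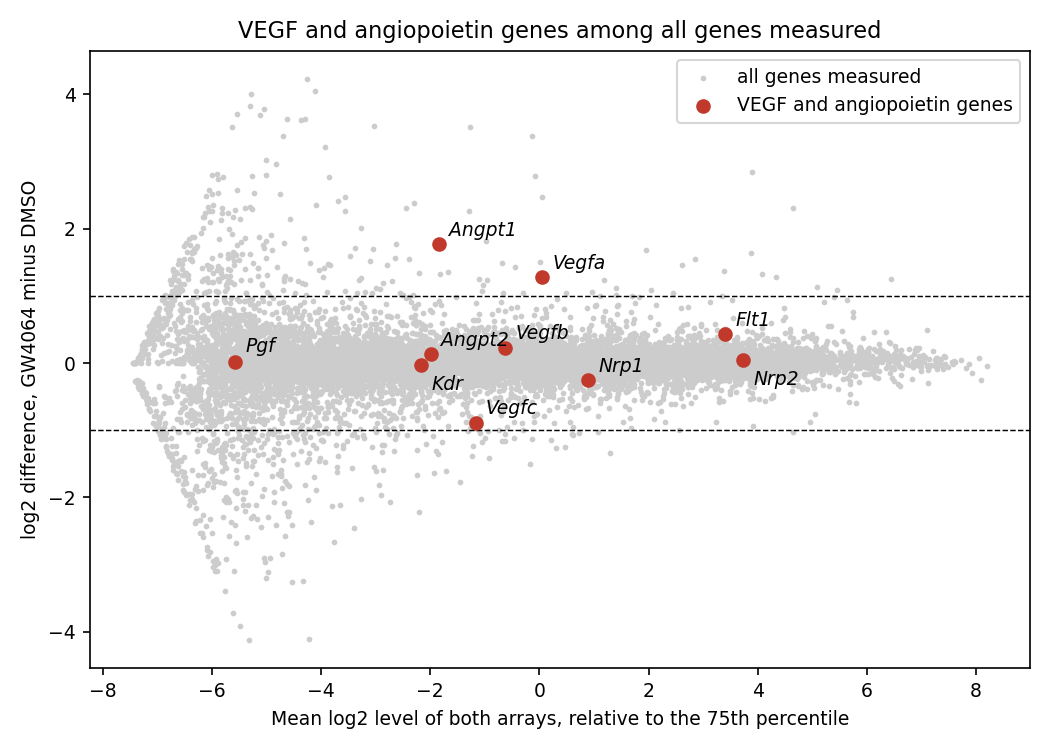
log2 difference of each gene (GW4064 minus DMSO) against its mean log2 level on both arrays relative to the 75th percentile, for the 13532 genes measured (grey; genes dim on 1 array are drawn with their bound) and the 10 VEGF and angiopoietin genes (red). Dashed lines mark 2-fold; Angpt1 at 1.77 and Vegfa at 1.28 lie above the upper line, Vegfc at -0.89 lies just inside the lower one, and the other 7 lie in the dense band around 0.

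Angpt1, the agonist of TIE2, showed the largest difference of the 10 genes. Its single probe had a signal of 182 with DMSO and 652 with GW4064, so that the log2 difference was 1.77, or 3.42-fold. This was 21.0 times the SD of copies of like brightness (0.085) and the 83rd highest of all genes, with 0.613% of the genes as high or higher. Across the 12 settings it lay between 1.45, with the normexp background correction, and 1.80. Angpt1 was read at 1 spot on each array, and 1 other spot within 300 µm differed 8-fold. Of the spots of dim repeated probes, 22 of 1510 with GW4064 and 36 of 1470 with DMSO exceeded the median of their own copies 8-fold. The brightest of these stray spots had a signal of 226 with GW4064 and 3102 with DMSO. Whether such a stray spot had a part in the Angpt1 value was not tested.

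Angpt2, the context-dependent antagonist, had 290 with DMSO and 332 with GW4064. Its difference of 0.13 was 1.37 times the copies' SD of 0.095, and it turned to -0.060 with spike-in centring. The spot had 3 other 8-fold differences within 300 µm and was the only one for Angpt2, so that no value remained without the damaged areas. The differences of the angiopoietins thus lay 1.64 log2 units apart, Angpt1 being 3.12-fold higher relative to Angpt2. The probes for Tek and Tie1, which encode the angiopoietin receptor and its partner, were not well above background on either array.

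Flt1, the VEGF receptor that macrophages are known to express, was bright and somewhat higher with GW4064. Its signal was 10979 with DMSO and 15426 with GW4064, a log2 difference of 0.42 or 1.34-fold, 6.53 times the copies' SD of 0.065. It was the 941st highest gene, and 6.95% of genes were as high or higher. The spot lay in a damaged area, with 5 other 8-fold differences within 300 µm, and Flt1 had no other probe. No value remained for Flt1 without the damaged areas, and the part of the damage in its difference was not tested. With spike-in centring the difference was 0.23, and Flt1 was higher in each of the 11 settings that gave a value. The settings on dim probes, marked spots and probe choice could not change its value.

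Kdr, the receptor through which most VEGF-A signals pass in endothelial cells, differed by less than the SD over single copies of its repeated probe. The repeated Kdr probe had 10 spots per array, of which 1 on the DMSO array was marked as an outlier. For the 9 copies usable on each array, the DMSO signals ran from 44.8 to 54.6 with a median of 49.1, and the GW4064 signals from 43.3 to 54.7 with a median of 47.1. The ranges overlapped almost completely. The difference over these copies was -0.065 ± 0.142 (SD, n = 9 spots), with 8 copies lower and 1 higher. This SD is the spread of single spots and not the error of their mean. The other Kdr probe, printed once in a damaged area with 2 other 8-fold differences nearby, had 1498 with DMSO and 1588 with GW4064, a difference of 0.018. Both probes are listed under the same transcript, yet they disagreed on its level. With DMSO the repeated probe was 3.11 times the lowest signal well above background, and the other probe 95.2 times. Taking all spots left on each array, 9 with DMSO and 10 with GW4064, the repeated probe gave -0.084, and the mean of both probes was then -0.033. This mean changed its sign under quantile normalization and when only the brighter probe was used. The differences of Flt1 and Kdr lay 0.46 log2 units apart.

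Nrp1, a co-receptor of KDR, was lower with GW4064, from a signal of 2450 to 2142. The difference of -0.26 was 3.61 times the copies' SD of 0.072 and kept its sign in all 12 settings, between -0.45 and -0.24. Nrp2, the co-receptor known for VEGF-C, was read by 2 probes that disagreed. They are listed under different transcripts, but whether they tell these apart is not known. The probe matched to NM_001077403 had 51986 with DMSO and 49424 with GW4064, a difference of -0.14. The probe matched to NM_001077406 had 4841 with DMSO and 5882 with GW4064, a difference of 0.22. These were 2.13 and 2.77 times the copies' SD in opposite directions. Their mean was 0.038, and it was negative in 3 of 12 settings, namely quantile normalization, spike-in centring (-0.15) and the brighter probe alone (-0.14).

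**Figure D3:**
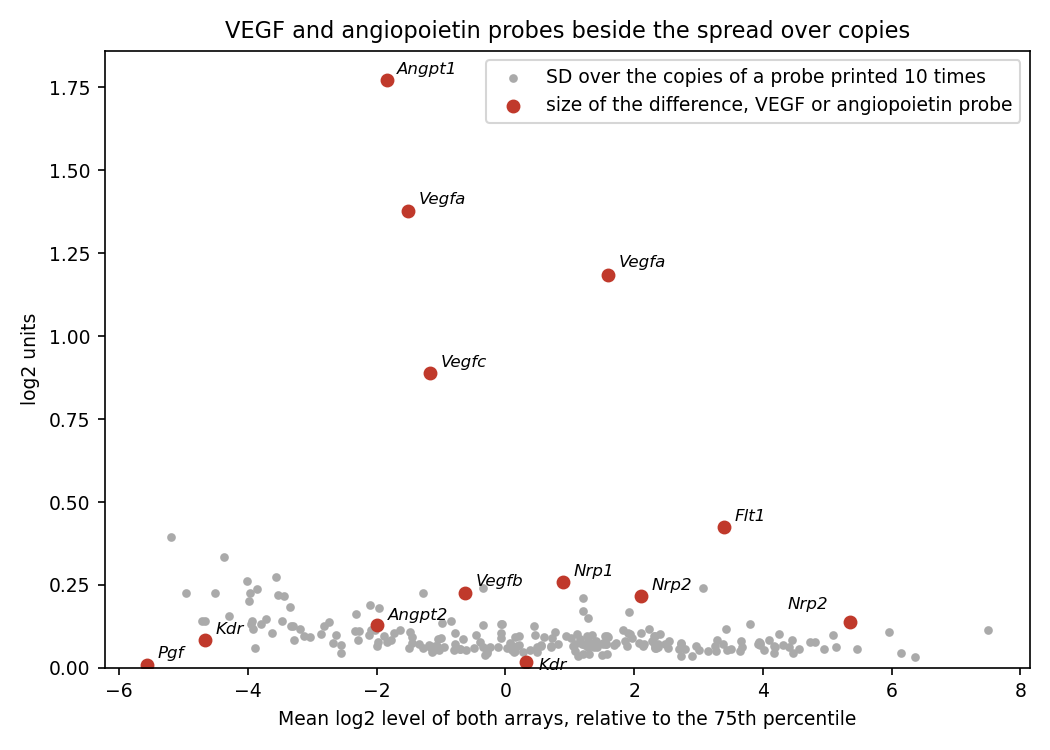
Size of the log2 difference of each of the 13 probes (red) beside the SD of the log2 difference over the copies of 227 probes printed 10 times (grey), both in log2 units, against the mean log2 level on both arrays. Angpt1, both Vegfa probes, Vegfc and Flt1 stand above all grey points, whereas Pgf, Angpt2 and both Kdr probes lie within or below them.

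**Figure D4:**
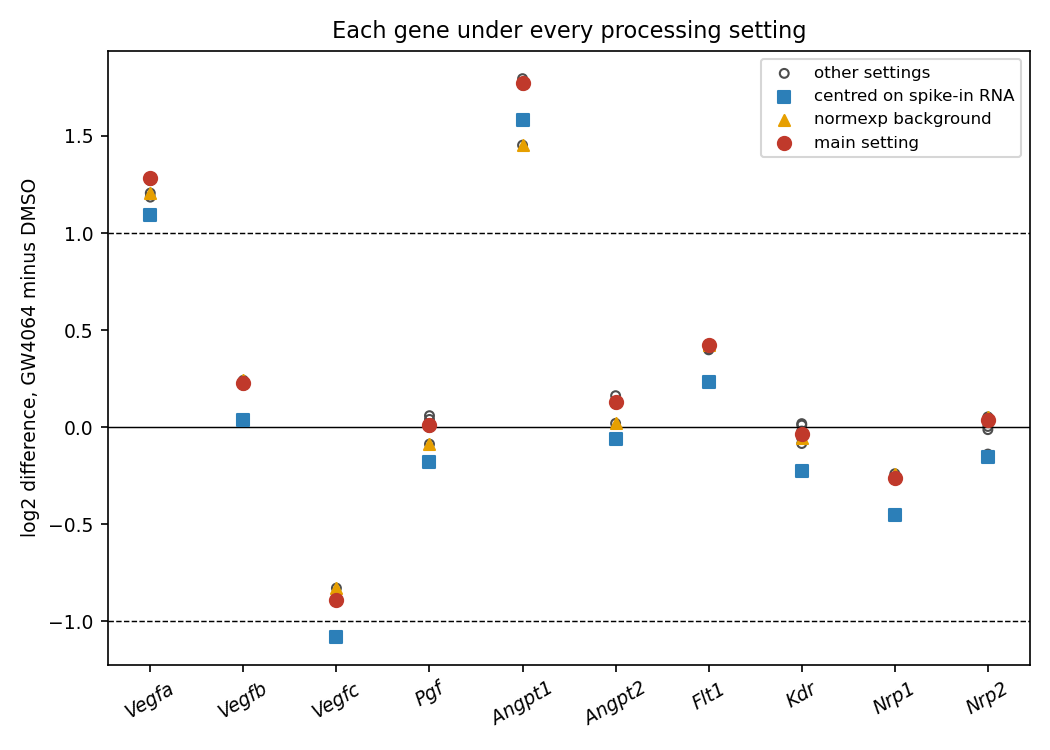
log2 difference (GW4064 minus DMSO) of each of the 10 genes under the main setting (red), with spike-in centring (blue squares), with the normexp background correction (orange triangles) and under all other settings (open circles). Vegfa and Angpt1 stay above the upper dashed line (2-fold) in every setting, Vegfc crosses the lower one with spike-in centring only, and Pgf, Angpt2, Kdr and Nrp2 fall on both sides of 0.

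Partners of these genes were taken from lists that hold none of the 10. For comparison, 6985 of all 13532 genes measured were higher and 6521 lower, with a median of 0.0068. In the VEGF and TIE axis 8 further genes were listed and 2 were measured, with 6 not well above background, namely Vegfd, Flt4, Tek, Tie1, Angpt4 and Ptprb. Ccbe1, which is needed for the maturation of VEGF-C, had signals of 77.6 with DMSO and 103 with GW4064, a difference of 0.38. Svep1, a matrix protein of the same axis, had 113 and 203, a difference of 0.78, at a spot with 4 other 8-fold differences nearby. Neither of the 2 measured genes differed 2-fold. Flt4 and Tek were thus not well above background on either array, while Flt1, Kdr, Nrp1 and Nrp2 were. For Kdr the level is uncertain, since its repeated probe was dim and only the probe in a damaged area was bright.

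Among 12 class 3 semaphorins and plexins, which share the neuropilins with VEGF, 9 were measured, 5 higher and 4 lower, with a median of 0.024. Plxna4, a plexin that signals for semaphorins bound to neuropilin, was the only one past 2-fold, with a mean of 1.07 that fell short of 2-fold with spike-in centring (0.88) and with the normexp correction (0.84). Its 2 probes gave 1.73 and at least 0.41, the latter dim on 1 array and in a damaged area. Of 19 genes that act below the VEGF receptors, 18 were measured, 8 higher and 10 lower, with a median of -0.040. Hspb1, a small heat shock protein downstream of KDR, had 830 with DMSO and 332 with GW4064, a difference of -1.39. Src, a kinase recruited by KDR, had 15.7 and 38.2, a difference of 1.21 that began at the lowest signal well above background and was 0.45 with the normexp correction. In each of these lists the median was close to that of all genes.

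Vegfa is a known target of the hypoxia-inducible factors. Of 20 genes for oxygen sensing and hypoxia, all were measured, 14 higher and 6 lower, beside 51.6% of all genes higher. Their median was 0.12 and none was past 2-fold. Hif1a had 1922 with DMSO and 2813 with GW4064, a difference of 0.48, and Hif1a was chosen for naming after its value was seen. Epas1, which encodes HIF-2α, had a mean difference of 0.70 over 3 probes that ranged from 0.16 to 0.96. Ndrg1, a hypoxia target, went the other way, with 1986 and 1120, a difference of -0.89. With spike-in centring, which lowered every value by 0.19, the median of this list was -0.075.

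Of 19 other angiogenic factors, 15 were measured, 6 higher and 9 lower, with a median of -0.11. Mmp9, a protease that frees VEGF from matrix, had 437 with DMSO and 3149 with GW4064, a difference of 2.78, which was 2.79 without the copies in damaged areas. Bmp2 had 26.2 and 254, a difference of 3.21, at its only spot, in a damaged area, and the difference was 1.66 with the normexp correction. Ccn1, a matrix protein that promotes vessel growth, had 697 and 361, a difference of -1.02. Of 13 angiostatic factors 11 were measured, 4 higher and 7 lower. Timp3, an inhibitor of metalloproteinases that also blocks KDR, had 646 with DMSO and 221 with GW4064, a difference of -1.61 at a spot with 0 other 8-fold differences nearby. The median of the angiostatic list was -0.56, but Thbs1, Thbs2, Serpinf1 and Vash2 had all their spots in damaged areas, and without those areas the median was 0.023.

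**Figure D5:**
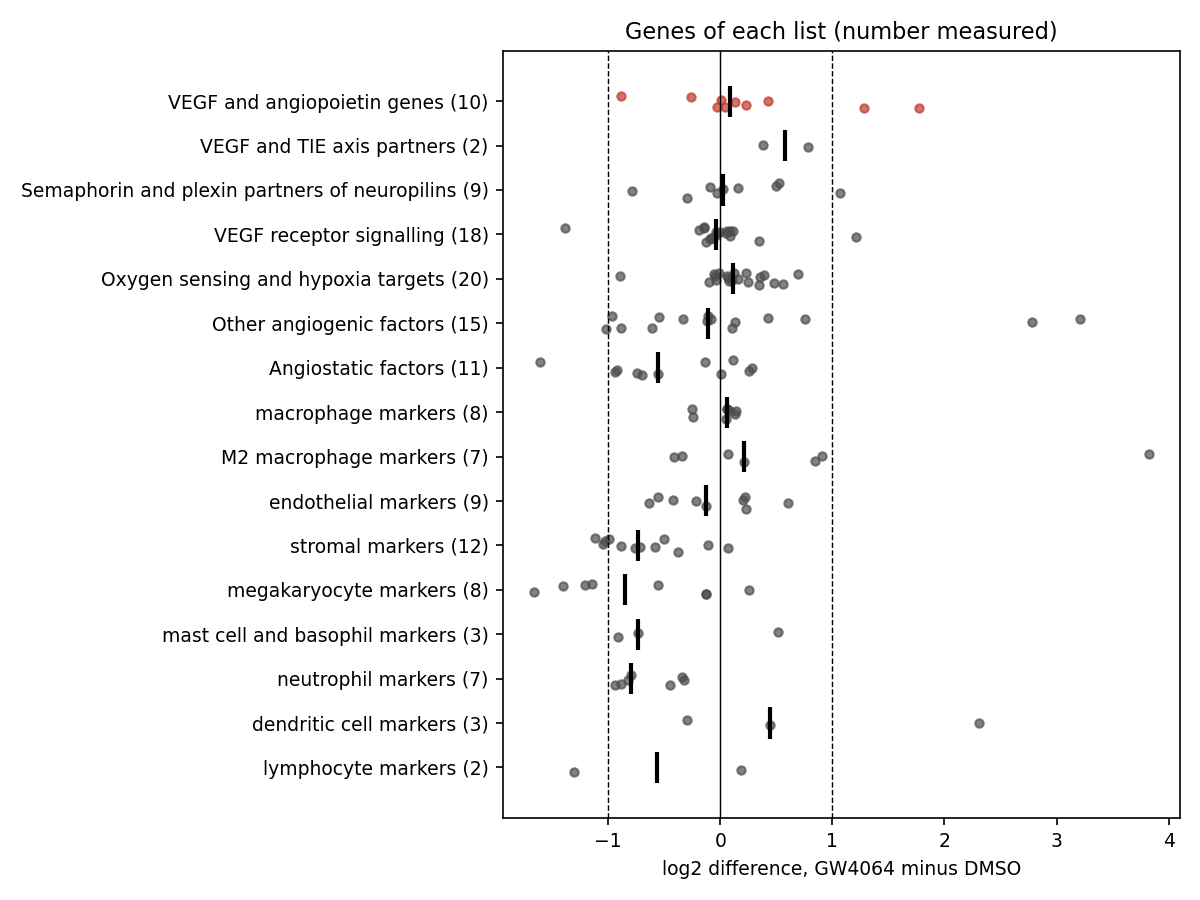
log2 difference (GW4064 minus DMSO) of each measured gene (points, spread vertically at random; genes dim on 1 array at their bound) for the 10 VEGF and angiopoietin genes (red) and for 6 pathway and 9 cell type lists (grey), with the number measured in brackets and the median as a black bar. Dashed lines mark 2-fold. The medians of the stromal, megakaryocyte, mast cell and neutrophil markers lie below -0.7, whereas those of macrophage and endothelial markers lie near 0.

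Markers of cells other than macrophages moved as follows, beside 6521 of 13532 genes lower and a median of 0.0068 over all genes. Of 13 endothelial markers, the cells best known for Kdr and Flt1, 9 were measured, 4 higher and 5 lower, with a median of -0.13 and summed signals of 17492 with DMSO and 16864 with GW4064, of which most came from Vwf (16904 and 16204). Sox17, Erg, Tie1 and Tek were not well above background. Megakaryocytes are known to hold ANGPT1 and VEGF-A, and of 8 megakaryocyte markers 7 were lower, with a median of -0.85 that ranged from -1.04 to -0.13 over the settings, while Pf4, which macrophages also express, was 0.26 higher. Of 7 mast cell and basophil markers 3 were measured, with a median of -0.74 that ranged from -0.93 to -0.29, and all 7 measured neutrophil markers were lower, with a median of -0.79. The median of each of these lists, like that of the stromal markers, was lower with GW4064. Of 6 dendritic cell markers 3 were measured, with a median of 0.44, and of 6 lymphocyte markers 2, namely Cd3e with 0.18 and Ms4a1 with a bound of -1.31. The lymphocyte median of -0.56 ranged from -0.75 to 0.18 over the settings, the dendritic one from 0.021 to 0.50. Of 8 M2 markers 7 were measured, 5 higher, with a median of 0.21. The part of any of these cells in the values of the 10 genes was not tested.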

How the data were processed

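The authors deposited 1 Agilent Feature Extraction 10.7.1.1 file per array, whose intensity values per spot are background-subtracted and detrended within the array and not scaled between arrays. They also deposited a log2 table, whose column difference equalled that of the intensities for all 39200 probes apart from a constant of 0.0022. Its medians were 0.035 for DMSO and -0.051 for GW4064, and the baseline of its centring is unknown. The array design names build mm9 and symbols came from RefSeq GRCm38.p6, so no coordinates are given.

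Spots marked as uneven or as outliers (399 with DMSO, 207 with GW4064) were dropped, and 0 spots were saturated. For a probe dim on 1 array, the dim value was its own or, where higher, the lowest signal well above background (15.7 and 15.1), which gives a lower bound. Gene values are means over the probes that were not dim on both arrays. Having 1 array per condition allowed no test and limits the precision throughout, and 2-fold was the threshold.

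The 10 genes and the 15 lists were chosen with earlier results of these data known. From each of the 6 pathway lists, genes past 2-fold on a probe measured on both arrays were named, or else the 2 with the largest difference. For the 9 cell type lists this rule was not followed throughout. Acta2 (-1.05), Tagln (-1.025) and Postn (-1.11) of the stromal list and Ppbp (-1.66) of the megakaryocyte list passed 2-fold but are given only here. Other genes were named after their values were seen. Calculations were tested on simulated data. Alternatives comprised other normalizations, background correction, filters, thresholds and probe choices. The normexp correction used limma 3.58.1 under R 4.3.3, and all else Python 3.11.15 with pandas 2.3.3, numpy 2.4.6, statsmodels 0.14.6, scipy 1.17.1 and, for the figures, matplotlib 3.10.9.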

Additional observations from a re-analysis of the deposited data

How the results depend on the processing

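No paired analysis was possible because neither condition was repeated. Vegfa and Angpt1 were 2-fold or more higher under all 11 alternatives other than the thresholds, and at 1.5-fold. Those on dim probes, marked spots and damaged areas left the values of both genes unchanged by construction, since none of their spots was affected. The deposited table differs from the intensities only by the constant of 0.0022. Angpt1 has 1 probe, so that taking the brightest probe could not change it. Passing 1.5-fold follows from passing 2-fold. At 4-fold 0 genes were higher. The number of genes lower was 1 (Vegfc) at 1.5-fold and with spike-in centring. That centring moved the median of all probes measured on both arrays to -0.18, and the share of higher genes among those past 2-fold from 42.9% to 28.8% (211 higher and 522 lower). It gave 1.09 for Vegfa, 0.036 for Vegfb, -1.08 for Vegfc, -0.18 for Pgf, 1.58 for Angpt1, -0.060 for Angpt2, 0.23 for Flt1, -0.22 for Kdr, -0.45 for Nrp1 and -0.15 for Nrp2. The list medians under it were 0.39 for VEGF and TIE partners, -0.17 for semaphorins and plexins, -0.21 for VEGF receptor signalling, -0.075 for hypoxia, -0.30 for other angiogenic factors and -0.75 for angiostatic factors.

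The normexp correction gave 1.21 for Vegfa, 1.45 for Angpt1, 0.0195 for Angpt2, 0.32 for the VEGF and TIE partners and -0.28 for angiostatic factors. It reduced the genes 2-fold higher from 276 to 72 and lower from 367 to 64. Without a filter on dim probes these numbers were 698 and 767, with only probes measured on both arrays 107 and 164, and without damaged areas 168 and 202. Without the filter the medians were 0.14 for VEGF and TIE partners, -0.061 for semaphorins and plexins and -0.21 for angiostatic factors. Without damaged areas, where Angpt2 and Flt1 had no value, they were 0.38 for VEGF and TIE partners and 0.023 for angiostatic factors. With marked spots kept the semaphorin and plexin median was 0.12. With the brightest probe of each gene Vegfa was 1.18, Nrp2 -0.14 and the median of other angiogenic factors -0.029. The cause of these shifts was not tested, apart from genes that lost their spots. The signal over background limits Pgf and the repeated Kdr probe most.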
